A study of Mus musculus with 6 samples.

Results

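The 80 genes described here are the nuclear-encoded subunits of the mitochondrial respiratory chain and of ATP synthase, chosen by their symbols from the 38293 gene IDs of the count tables. They comprise 36 symbols of complex I (Ndufa, Ndufb, Ndufc, Ndufs and Ndufv followed by a number), 4 of complex II (Sdha to Sdhd), 8 of complex III, 14 of complex IV and 18 beginning with Atp5. No measured value entered that choice. A symbol is not always a subunit: Atp5l2 is annotated as a processed pseudogene in GENCODE M21, Atp5s and Atp5sl are not structural subunits of ATP synthase, and Ndufa4, named for complex I, is now counted with complex IV. Sums and counts by complex follow the symbols, so Ndufa4 stays in complex I there. All 80 were detected in 5 of the 6 libraries and 79 in the other.

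The cells came from the spinal cord of C57BL/6 mice of 10 weeks and were sorted for the myeloid surface protein CD11b after staining with 10 µM DCFDA, whose oxidation by reactive oxygen species (ROS) makes it fluoresce. In all, 3 groups of 2 droplet libraries were compared: dye-positive cells of mice with experimental autoimmune encephalomyelitis (EAE ROS+), dye-negative cells of such mice (EAE ROS-) and dye-negative cells of healthy mice (healthy ROS-). EAE, a model of multiple sclerosis, had been started with a peptide of myelin oligodendrocyte glycoprotein, and the mice were taken at the first clinical signs. Whether replicate libraries stem from different mice is not in the labels. P-values between groups therefore measure the spread between libraries alone, which may be technical. For comparisons of cell classes within libraries, they measure how far class differences vary from library to library.

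The respiratory chain passes electrons from NADH, through complex I, or from succinate, through complex II, to complex III and then to oxygen at complex IV. Complexes I, III and IV pump protons, and ATP synthase uses the returning protons to make ATP. Complex II is encoded entirely in the nucleus, whereas the other complexes also hold subunits encoded by mitochondrial DNA. Complexes I and III are known sites of superoxide formation, and activated macrophages and microglia are known to shift between respiration and glycolysis.

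Levels are given as CPM: unique molecular identifiers (UMIs, counted transcripts) of a gene, divided by all UMIs of the same cells and scaled to a common total. They refer to the 3' ends of transcripts. Microglia, monocyte-derived cells and dendritic cells were defined by marker UMIs: at least 3 UMIs of the class's markers and at least 75% of all marker UMIs in the cell. Microglia (markers such as Tmem119 and P2ry12) were 20 and 11 cells in the EAE ROS+ libraries, 452 and 207 cells in the EAE ROS- libraries, and 1749 and 195 cells in the healthy ROS- libraries. Monocyte-derived cells (Ccr2, Ly6c2, Ms4a7 and others) numbered 1647 and 2155 in EAE ROS+ and 772 and 1053 in EAE ROS-, and the healthy libraries held 0. Dendritic cells (Ccr7, Ccl22, Flt3 and others) were enough for a sum in EAE ROS- alone, with 18 and 25 cells. A further 5 to 353 cells a library met no class, and 2 to 162 had a marker share within 5 points of the 75% limit. Libraries held 915197 to 23407825 UMIs and shared at most 7 cell barcodes pairwise.

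Promoter sequence was looked at for motifs of factors known to control such genes: NRF1, the ETS family, which includes the GABP activator of cytochrome oxidase genes, and YY1. RefSeq promoters (GRCm38.p6, 250 bases before to 50 after the start) were present for 66 of the 80 members, and a gene with several listed promoters was counted once, as holding a motif if any of them did. On either strand, the NRF1 letters GCGCANGCG stood in a promoter of 20 of these 66 genes (30.3%), against 7.03% of the 27025 genes of the table. The ETS letters CCGGAAG stood in a promoter of 16 genes (24.2%), against 9.93%, and the YY1 letters AAGATGGC in 11 (16.7%), against 3.19%. By complex, the NRF1 letters were found for 7 of 16 ATP synthase genes and 1 of 10 complex IV genes, and the YY1 letters for 7 of 32 complex I genes, 4 of 16 ATP synthase genes and none of the others. A match describes these letters alone. Below are a promoter with each motif among the members that differed most between EAE and healthy microglia, and that of Cox6a1, the counterpart of Cox6a2. The capitals mark the matches: ETS in Ndufs3 (chr2:90904672-90904971, minus strand), YY1 in Ndufc1 (chr3:51408906-51409205, minus strand), NRF1 in Atp5g3 (chr2:73911277-73911576, minus strand), and NRF1 and ETS in Cox6a1 (chr5:115348909-115349208, minus strand).
Ndufs3: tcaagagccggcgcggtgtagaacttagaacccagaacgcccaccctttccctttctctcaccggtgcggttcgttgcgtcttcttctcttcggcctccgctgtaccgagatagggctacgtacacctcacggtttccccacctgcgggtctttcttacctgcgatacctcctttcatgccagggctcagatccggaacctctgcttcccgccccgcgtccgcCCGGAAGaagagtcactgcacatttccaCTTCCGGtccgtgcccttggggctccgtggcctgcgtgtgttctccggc
Ndufc1: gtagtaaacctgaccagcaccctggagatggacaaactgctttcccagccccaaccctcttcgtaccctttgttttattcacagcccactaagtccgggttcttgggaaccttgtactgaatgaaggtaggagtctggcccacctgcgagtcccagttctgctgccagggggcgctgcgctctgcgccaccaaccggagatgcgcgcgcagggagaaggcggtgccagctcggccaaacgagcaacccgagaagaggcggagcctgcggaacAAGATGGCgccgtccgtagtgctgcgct
Atp5g3: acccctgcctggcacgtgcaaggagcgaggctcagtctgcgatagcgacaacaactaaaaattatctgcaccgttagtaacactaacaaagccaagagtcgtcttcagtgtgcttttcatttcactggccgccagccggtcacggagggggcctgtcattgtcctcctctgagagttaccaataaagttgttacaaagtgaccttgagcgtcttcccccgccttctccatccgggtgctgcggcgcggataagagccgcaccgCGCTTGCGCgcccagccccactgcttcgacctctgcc
Cox6a1: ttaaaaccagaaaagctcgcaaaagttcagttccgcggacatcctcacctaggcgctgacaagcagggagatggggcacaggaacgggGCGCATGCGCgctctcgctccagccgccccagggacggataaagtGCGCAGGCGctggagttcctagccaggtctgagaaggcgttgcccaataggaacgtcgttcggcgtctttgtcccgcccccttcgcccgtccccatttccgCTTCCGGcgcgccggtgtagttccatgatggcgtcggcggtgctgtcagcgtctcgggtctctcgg

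The first comparison set microglia of EAE ROS- libraries against those of healthy ROS- libraries. Subunit transcripts of all 5 complexes took a larger share of the RNA in EAE microglia. The 80 members together had 18875 and 19739 CPM in EAE ROS- microglia, against 11428 and 12681 in healthy microglia, a ratio of 1.60. The groups did not overlap for any of the 5 complexes. Complex I summed to 5920 and 6496 CPM in EAE ROS-, against 4017 and 4300 in healthy microglia (ratio 1.49), and complex II to 469 and 458, against 313 and 320 (ratio 1.47). Complex III summed to 2103 and 2198 in EAE ROS-, against 1305 and 1478 in healthy (ratio 1.55), complex IV to 5762 and 5762, against 3156 and 3666 (ratio 1.69), and ATP synthase to 4620 and 4825, against 2637 and 2918 (ratio 1.70). Per cell, the median share of UMIs from members was 1.82% and 1.90% in EAE ROS- microglia, against 1.11% and 1.23% in healthy microglia. The 13 mitochondrially encoded subunit genes did not separate the groups: they summed to 26491 and 24716 CPM in EAE ROS-, against 14387 and 24984 in healthy microglia.

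**Figure D1:**
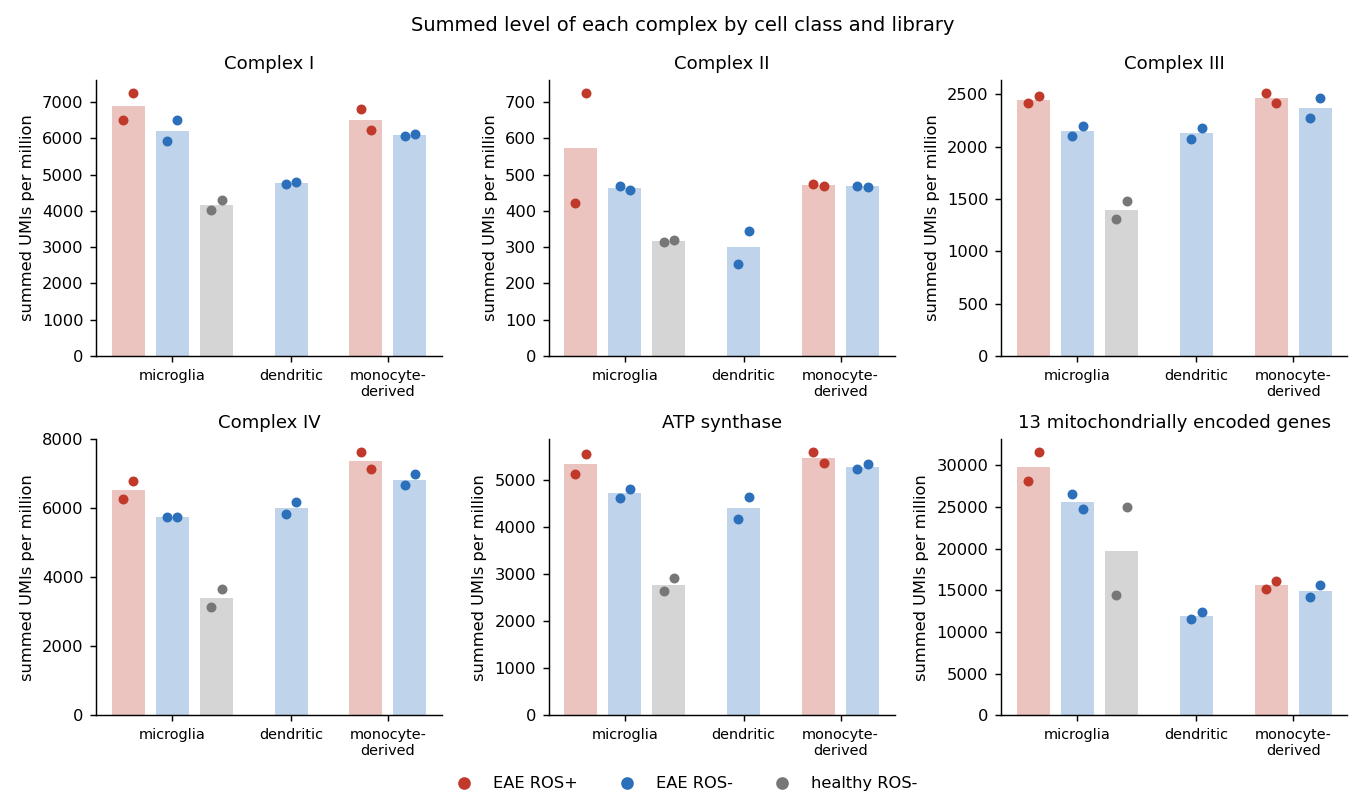
Summed CPM (vertical axes, from 0) of each complex and of the 13 mitochondrially encoded genes, by cell class and group. Points are libraries and bars their means. In microglia, both EAE ROS- libraries lie above both healthy ROS- libraries for all 5 complexes, while the mitochondrially encoded sum of 1 healthy library, 24984, lies among the EAE values.

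Members were tested gene by gene with edgeR's quasi-likelihood test over 8722 genes. At an adjusted p under 0.05, 53 of the 77 members tested rose and 0 fell. Of all genes tested, 15.8% were called higher and 1062 were called lower. The members' median log2 fold change was 0.83, and that of all genes -0.04. On plain totals, without TMM scaling, 39 of 77 were higher, with medians of 0.62 for members and -0.26 for all genes. By complex, the members higher were 21 of 36 in complex I, 2 of 4 in complex II, 5 of 8 in complex III, 11 of 12 in complex IV and 14 of 17 in ATP synthase. Within complex I, 2 of the 7 core subunits, which include the carriers of the flavin and iron-sulfur clusters, were higher, with a median log2 fold change of 0.33, and 19 of the 29 other subunits, with a median of 0.80; the difference between these sets was not tested. In plain CPM, 62 of the 77 members had both EAE ROS- libraries above both healthy ones (all genes 24.0%) and 2 had both below (all genes 42.0%).

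Cox6a2 changed most among the members. It encodes the subunit VIa isoform of complex IV that is known from heart and skeletal muscle. In microglia it had 210 and 208 CPM in EAE ROS- (744 and 231 UMIs), against 11.98 and 17.5 in healthy libraries (53 and 15 UMIs). The 2 groups were far apart, and the log2 fold change was 4.16 ± 0.31 (SE; edgeR adjusted p = 1.7e-11). The widely expressed isoform Cox6a1 had 431 and 466 CPM in EAE ROS-, against 295 and 283 in healthy microglia (log2 0.83 ± 0.24; edgeR adjusted p = 0.010); this call was lost in cells of 1000 to 4000 UMIs (adjusted p = 0.27) and without EAE ROS- replicate 1 (0.11) or 2 (0.17) or healthy replicate 1 (0.13). Of the UMIs of both isoforms, Cox6a2 therefore made up 32.8% (Wilson 95% interval 30.9 to 34.7) and 30.9% (27.7 to 34.3) in EAE ROS- microglia, against 3.90% (2.99 to 5.06) and 5.81% (3.55 to 9.37) in healthy microglia. These intervals cover counting error only. Cox6a2 lies at chr7:128205435-128206387 on the minus strand (GRCm38), inside the integrin gene Itgad on the plus strand, whose exons it overlaps; Itgad had 1 UMI in 1 EAE ROS- library and 0 in the other microglial sums. Of the neighbouring integrin genes, Itgax had 74.3 and 35.2 CPM in EAE ROS- microglia, against 4.07 and 3.49 in healthy microglia. The integrin gene Itgam had 417 and 633, against 492 and 700, with overlap. Armc5, also nearby, had 42.7 and 53.2, against 31.0 and 26.8. 9130023H24Rik had 5.94 and 9.92, against 9.72 and 11.6, with overlap. Tgfb1i1 and Slc5a2 had at most 3 UMIs in any microglial sum.

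The other 7 members named by size of change lay close together, between 1.34 and 1.44 on the log2 scale. Ndufc1, an accessory subunit of complex I, had 168 and 196 CPM in EAE ROS- microglia, against 75.9 and 77.9 in healthy microglia (log2 1.44 ± 0.25; edgeR adjusted p = 5.7e-05). Cox5b, a nuclear subunit of complex IV, had 371 and 391.5, against 159 and 165 (log2 1.43 ± 0.24). Uqcrq, a small subunit of complex III, had 371 and 427, against 180 and 162 (log2 1.41 ± 0.25). In each of these 3 genes both EAE libraries lay above both healthy ones. Atp5b, the catalytic beta subunit of ATP synthase, had 466 and 632 CPM in EAE ROS-, against 226 and 245 in healthy microglia (log2 1.40 ± 0.25). Ndufs3, a core subunit of complex I, had 132 and 173, against 78.9 and 48.9 (log2 1.38 ± 0.26). Ndufa1, which complex I needs for assembly in mammalian cells, had 258 and 239, against 117 and 95.4 (log2 1.42 ± 0.24). Adjusted p-values of these edgeR tests ran from 4.6e-05 to 0.00014, and Atp5g3, 1 of 3 genes for the same membrane-ring subunit c, had 190 and 220, against 82.5 and 105 (log2 1.34 ± 0.25). Its counterpart Atp5g1 rose as well (log2 1.23 ± 0.24), whereas Atp5g2 had 81.4 and 33.4, against 61.3 and 23.3, and was not called (edgeR adjusted p = 0.20).

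Complex II links the chain to the citric acid cycle, and all 4 of its genes had both EAE ROS- libraries above both healthy ones, of which 2 were called. Sdhb, its iron-sulfur subunit, had 216 and 202 CPM in EAE ROS- microglia, against 117 and 126 in healthy microglia (log2 1.00 ± 0.25; edgeR adjusted p = 0.0027), and the membrane anchor Sdhd had 107 and 100, against 69.8 and 79.1 (log2 0.70 ± 0.25; adjusted p = 0.032). The flavoprotein Sdha had 84.2 and 95.6, against 80.02 and 65.2, and the anchor Sdhc 62.7 and 60.4, against 46.6 and 50.03; neither passed the test. The Sdhd call was lost with DESeq2 (adjusted p = 0.18), RLE scaling (0.068) and plain totals (0.15), in cells of 1000 to 4000 UMIs (0.49), without cells with endothelial UMIs (0.056), and without EAE ROS- replicate 1 or 2 or healthy replicate 1 (0.17 to 0.40). Sdhb lost its call in cells of 1000 to 4000 UMIs (adjusted p = 0.075) and without EAE ROS- replicate 1 (0.065) or healthy replicate 1 (0.097), and Sdhc gained one without dividing cells (0.0497). Members of high level rose too: Cox4i1 had 977 and 871 CPM in EAE ROS-, against 566 and 707 in healthy (log2 0.73 ± 0.26; adjusted p = 0.037), and Cox8a 768 and 785, against 429 and 478 (log2 0.97 ± 0.25). The Cox4i1 call was lost with DESeq2 (adjusted p = 0.12), RLE scaling (0.077), plain totals (0.061) and a class rule of 5 UMIs and 90% (0.061), in cells of 1000 to 4000 UMIs (0.078), without cells with endothelial UMIs (0.051), and without EAE ROS- replicate 1 or 2 or healthy replicate 1 (0.17 to 0.42). Cox8a lost its call in cells of 1000 to 4000 UMIs (adjusted p = 0.060) and without any of those 3 libraries (0.071 to 0.12). Uqcrh, the hinge subunit of complex III, had 450 and 350 CPM in EAE ROS-, against 300 and 391 in healthy microglia, and its groups overlapped. Atp5l2 and Atp5sl were the 2 tested members with negative fold changes (log2 -0.35 ± 0.39 and -0.51 ± 0.33), and neither was called. The tissue isoforms Cox4i2 and Cox7a1, with at most 2.33 CPM in the EAE ROS- and healthy sums, and Atp5s fell under the filter on low counts.

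**Figure D2:**
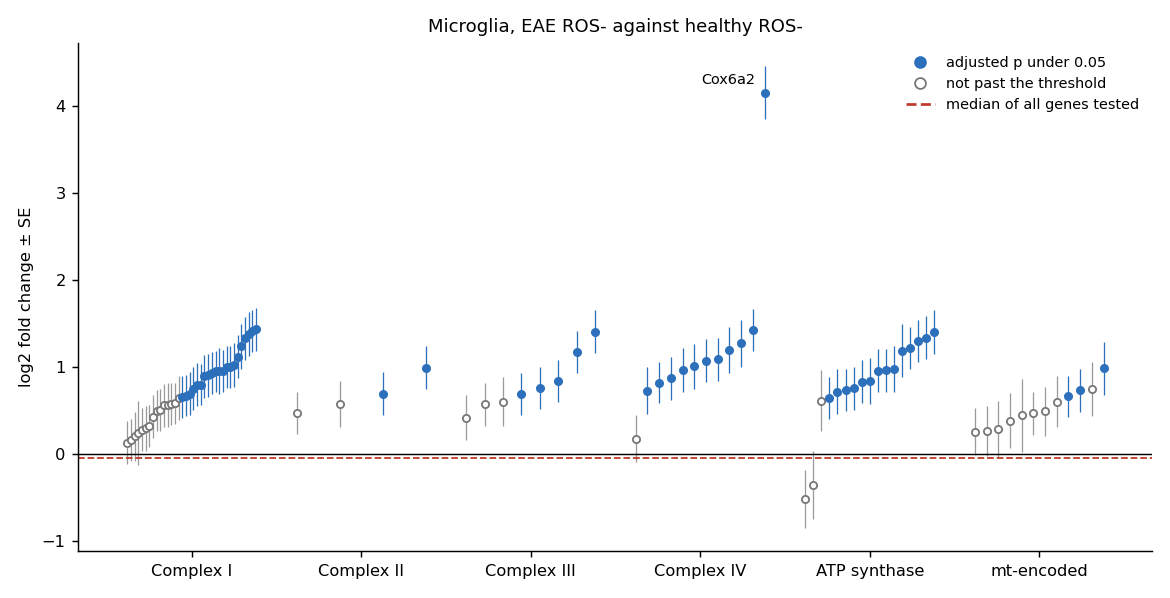
Log2 fold change of each member in microglia, EAE ROS- against healthy ROS- (vertical axis, with standard errors; 2 libraries a group), grouped by complex, with the mitochondrially encoded genes on the right. Filled points passed an adjusted p under 0.05: 53 of 77 members, led by Cox6a2 at 4.16, while the dashed line, the median of all genes, lies at -0.04.

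Of the mitochondrially encoded genes, 3 of 12 tested rose in EAE ROS- microglia, among them mt-Co1, the catalytic subunit of complex IV (log2 0.99 ± 0.31; edgeR adjusted p = 0.015). Among further genes of the pathway, 4 of 6 tested subunits and carriers outside the symbol rule were higher, including Cycs, which encodes cytochrome c (log2 1.40 ± 0.28) and Usmg5, an ATP synthase component (log2 1.14 ± 0.24). Of 16 citric acid cycle genes 5 were higher, led by Mdh2, malate dehydrogenase (log2 1.23 ± 0.24), and Cs, citrate synthase (log2 1.14 ± 0.28). Of 69 mitochondrial ribosome genes 17 were higher, with a median of 0.43, and of 38 assembly factors 3, with a median of 0.14. Of 8 transcriptional regulators of mitochondrial genes 0 were called, with 0 at an unadjusted p under 0.05 and a median of -0.32. No gene of these lists was lower. Of all 8722 genes tested in this comparison, 15.8% were called higher and 1062 were called lower.

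Several measures moved with this comparison, and their part in it was not tested. EAE microglia held more UMIs, with a median of 6644 and 4757 a cell in EAE ROS-, against 2179 and 3614 in healthy libraries, and within every library the members' share was larger in cells with more UMIs. At 2000 to under 4000 UMIs a cell, the members summed to 15340 and 18137 CPM in EAE ROS- microglia, against 11407 and 11961 in healthy microglia. At 4000 to under 8000 UMIs they summed to 17717 and 19623, against 12131 and 13069, so the groups did not overlap at either depth. With cells of 1000 to 4000 UMIs alone, 22 of 75 members were called higher (median 0.70). The cells left were 32 and 75 EAE ROS- microglia and 1475 and 115 healthy ones. Over all genes 470 were then called higher and 350 lower (median -0.03), in place of 1376 and 1062. The microglial markers summed to 3003 and 3748 CPM in EAE ROS- microglia, against 9792 and 10397 in healthy microglia, and those of monocyte-derived cells to 329 and 446, against 31.2 and 16.3; the EAE values are 6.86% and 6.45% of the level in monocyte-derived cells of the same libraries. Endothelial markers, at 5.94 and 9.92 CPM in EAE ROS-, against 3.39 and 263 in healthy microglia, were high in 1 healthy library. Without cells with 2 or more such UMIs, 50 of 77 members were higher. Cells with under 2 UMIs of 5 dividing-cell genes were 349 of 452 and 149 of 207 EAE ROS- microglia. In healthy libraries they were 1741 of 1749 and 194 of 195. With these cells alone, 1271 of all genes were called higher and 996 lower. Fewer members were called when healthy replicate 1, or EAE ROS- replicate 1 or 2, was left out, which leaves 1 library in that group. Calls over all genes, higher and lower, fell as well.

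**Figure D3:**
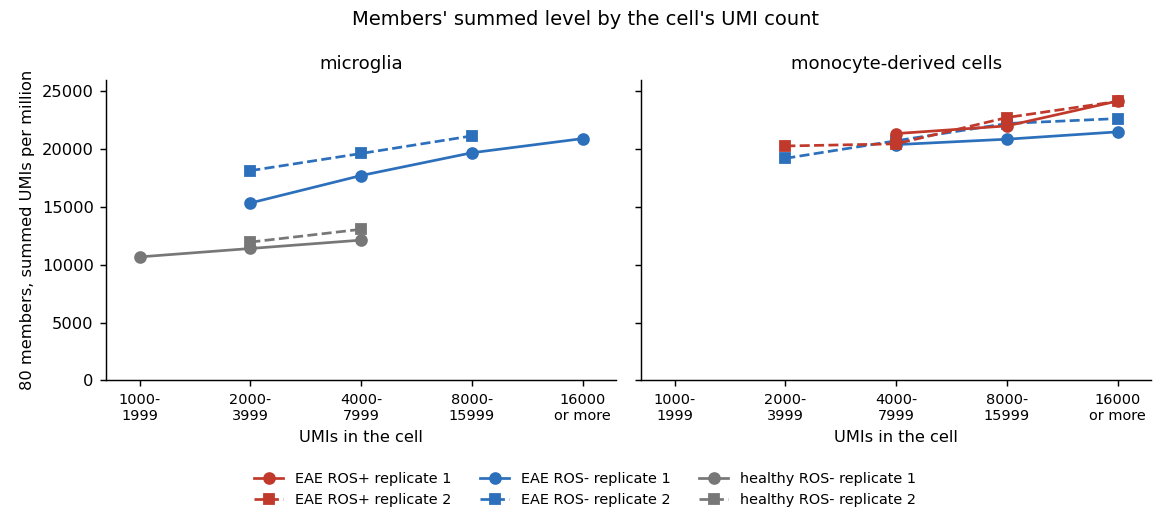
Summed CPM of the 80 members (vertical axis) in cells grouped by their UMI count (horizontal axis), in microglia and monocyte-derived cells; each line is 1 library, and bins with under 20 cells are not drawn. At 4000 to under 8000 UMIs the EAE ROS- microglia lie at 17717 and 19623, above the healthy ROS- microglia at 12131 and 13069.

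The dye gate was compared next, EAE ROS+ against EAE ROS- within a class. In monocyte-derived cells the summed members differed little: 23005 and 21631 CPM in EAE ROS+, against 20721 and 21403 in EAE ROS- (ratio 1.06), without overlap. Median UMIs a cell were 9468 and 5434 in EAE ROS+, against 7445.5 and 6600 in EAE ROS-. At 4000 to under 8000 UMIs a cell the sums were 21344 and 20456, against 20389 and 20723. At 8000 to under 16000 they were 22007 and 22732, against 20858 and 22215, with overlap at both depths. At 16000 or more they were 24160 and 24131, against 21492 and 22641, without overlap. The part of depth was not tested. Of the 80 members 0 were called in either direction by edgeR, and 1 had an unadjusted p under 0.05, where 0.0% of 11914 genes were called; DESeq2 called 1 member, lower. The members' median log2 fold change was 0.12, against 0.02 for all genes, and 18 members had both ROS+ libraries above both ROS- libraries (all genes 12.5%), while 4 had both below (all genes 19.1%). The member with an unadjusted p under 0.05 was Cox6a2, with 6.47 and 3.30 CPM in ROS+ monocyte-derived cells, against 15.8 and 16.1 in ROS- cells (log2 -1.63 ± 0.34; edgeR adjusted p = 0.75). This p depended on the setting: Cox6a2 was called lower with DESeq2 (adjusted p = 0.025), without the low count filter (1.1e-06) and without EAE ROS+ replicate 1 (0.0079), and over all alternatives the adjusted p ran up to 0.9997. The microglial markers lay lower in the same cells, at 125 and 71.5 CPM in ROS+, against 214 and 128 in ROS-. Set against microglia of the same library, Cox6a2 in monocyte-derived cells stood at 5.00% and 1.24% in ROS+ and 7.50% and 7.74% in ROS-, and the microglial markers at 4.19% and 2.53% in ROS+ and 7.14% and 3.403% in ROS-. In this class Cox6a2 was highest in the largest cells of each library. At 16000 UMIs or more it had 9.56 and 9.71 CPM in ROS+, against 41.1 and 71.1 in ROS-. At 4000 to under 8000 UMIs it had 3.23 and 1.09, against 10.1 and 5.68. The part of the microglial markers and of depth in the Cox6a2 values was not tested.

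In microglia the ROS+ gate held 20 and 11 cells, which limits any comparison. Of these, 8 and 8 had under 2 UMIs of the dividing-cell genes, against 349 of 452 and 149 of 207 in EAE ROS-. The part of dividing cells in the values below was not tested. The members summed to 20757 and 22831 CPM in EAE ROS+ microglia, against 18875 and 19739 in EAE ROS- (ratio 1.13). By edgeR 0 of 77 members were called, with 2 at an unadjusted p under 0.05 (Ndufa5 and Ndufa6, named after their values were seen), where 0.0115% of all genes were called higher and 0.0% lower; DESeq2 called 0 as well. In plain CPM, 27 members had both ROS+ libraries above both ROS- ones (all genes 15.5%) and 2 had both below (all genes 23.8%). Cox6a2 had 129 and 265 CPM (31 and 19 UMIs) in EAE ROS+ microglia, against 210 and 208 in EAE ROS-, so the groups overlapped. A test of whether the gate difference depended on the class called 0 of 80 members, by edgeR and by DESeq2, with Cox6a2 the only one at an unadjusted p under 0.05 (difference on the log2 scale 1.16 ± 0.36; edgeR adjusted p = 0.31), where 0.197% of all genes were called higher and 0.00858% lower. Without EAE ROS+ replicate 1, this test called 1 member.

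Summed over all cells of a library, the gate and disease comparisons also carry the mix of cells, so a changed mix and changed RNA per cell cannot be told apart there. Both comparisons use the same EAE ROS- libraries. Of all 13631 genes tested, 2.04% were called lower in EAE ROS+ than in EAE ROS- and 17 were called higher. Among the 80 members, 1 was lower and 0 were higher. It was Cox6a2, with 10.7 and 8.15 CPM in EAE ROS+, against 94.8 and 52.7 in EAE ROS- (log2 -2.78 ± 0.32; edgeR adjusted p = 0.0034), the group with more microglia. In plain CPM, 30 members had both EAE ROS+ libraries above both EAE ROS- ones (all genes 9.96%) and 9 had both below (all genes 38.0%). In EAE ROS- against healthy ROS-, 65 of 80 members were higher and 0 lower. Of all 13631 genes tested, 19.9% were called higher and 1914 were called lower. In cells of 1000 to 4000 UMIs, 2 of 76 members were called. This limit also changed the mix of cells. The EAE ROS- libraries kept 32 and 75 microglia, in place of 452 and 207. They kept 5 and 36 monocyte-derived cells, in place of 772 and 1053. Over all genes 655 were then called higher and 384 lower, in place of 2715 and 1914. Without overlap in plain CPM, 65 members lay higher (all genes 23.1%) and 4 lower (all genes 49.7%). The scaling mattered as well: the members' median was 1.25 with TMM scaling and 0.77 on plain totals, while that of all genes was 0.01 and -0.48. The summed members had 20277 and 21399 CPM in EAE ROS-, against 11431 and 12805 in healthy libraries (ratio 1.72). The isoform Cox4i2 had 2.92 and 2.27 CPM over all EAE ROS- cells, with 46 and 27 UMIs, against 1 and 0 UMIs in the healthy libraries.

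Within the EAE libraries, microglia were then compared with monocyte-derived cells, the library serving as a block. Complex IV transcripts, without Ndufa4, made up less of the RNA in microglia. The complex I sum was lower in 1 EAE ROS- library and higher in the other. That sum holds Ndufa4, which was higher in microglia, as given below. Part of the contrast between complexes I and IV thus rests on its placement, and sums with Ndufa4 in complex IV were not made. In EAE ROS- libraries, complex IV summed to 5762 and 5762 CPM in microglia, against 6674 and 7004 in monocyte-derived cells of the same libraries (ratios 0.863 and 0.823), and ATP synthase to 4620 and 4825, against 5235 and 5349 (0.883 and 0.902). Complex I summed to 5920 and 6496 in microglia, against 6067 and 6122 (0.976 and 1.06), and complex II to 469 and 458, against 470 and 465. In EAE ROS+ libraries the complex IV ratios were 0.821 and 0.952. The mitochondrially encoded genes went the other way, with 26491 and 24716 CPM in microglia, against 14239 and 15575 in monocyte-derived cells (1.86 and 1.59), and in EAE ROS+ libraries with 28034 and 31511, against 15101 and 16139.

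By gene, 5 of 79 members were higher in microglia and 31 lower, where 19.3% of all genes were called higher and 20.9% lower; the members' median log2 fold change was -0.31 and that of all genes 0.00. These counts depend on the scaling. On plain totals 6 members were higher and 14 lower, and the median was -0.06 for members and 0.23 for all genes; with RLE scaling 6 were higher and 19 lower, with medians of -0.16 and 0.14, and all genes split 2532 higher to 1762 lower in place of 2058 to 2223. A change of scaling shifts members and all other genes alike. Without EAE ROS- replicate 2, 3 members were called higher and 14 lower. Markers of monocyte-derived cells summed to 468, 600, 329 and 446 CPM in the microglia of the 4 libraries, against 4429, 8873, 4790 and 6912 in monocyte-derived cells; their part in the result was not tested. With TMM scaling, the lower calls were 9 of 13 in complex IV, 11 of 36 in complex I and 3 of 8 in complex III. They were 7 of 18 in ATP synthase and 1 of 4 in complex II. On plain totals, the lower calls in complex IV were Cox5a, Cox5b, Cox6b1, Cox7a1, Cox7a2, Cox7c and Cox8a. Those outside it were Ndufa6, Ndufb6, Ndufv3, Uqcrfs1, Uqcrh, Atp5d and Atp5l. Of the 13 mitochondrially encoded genes 11 were higher and 0 lower (median 0.91), among them mt-Nd1 of complex I (log2 1.04 ± 0.14).

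Cox6a2 and Ndufa4 stood apart on the higher side. Cox6a2 had 129, 265, 210 and 208 CPM in microglia of the 4 EAE libraries, against 6.47, 3.30, 15.8 and 16.1 in monocyte-derived cells (log2 3.88 ± 0.20; edgeR adjusted p = 4.1e-50). Ndufa4, a subunit found in cytochrome oxidase that keeps the name of complex I, had 288, 321, 320 and 390 in microglia, against 90.9, 142, 108 and 103 in monocyte-derived cells (log2 1.37 ± 0.15; adjusted p = 8.0e-16). In both genes every microglial sum lay above every monocyte-derived sum. In healthy microglia, which the fit did not use, Ndufa4 had 209 and 271 CPM. Ndufa9 (log2 0.64 ± 0.17) and Ndufa12 (0.57 ± 0.16), accessory subunits of complex I, were also higher, as was Atp5s, with at most 19 UMIs in an EAE microglial sum. Across the alternatives run, the log2 fold change lay between 3.49 and 4.31 for Cox6a2 and between 1.27 and 1.63 for Ndufa4.

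Among the members lower in microglia were nuclear subunits of complex IV and a membrane subunit of ATP synthase. Atp5l, subunit g of ATP synthase, had 317, 279, 298 and 169 CPM in microglia, against 523, 379, 463 and 283 in monocyte-derived cells (log2 -0.91 ± 0.15; edgeR adjusted p = 7.6e-08), and was lower in microglia within each library although the 2 ranges overlapped. Cox8a had 877, 935, 768 and 785, against 1259, 1122, 1066 and 1129 (log2 -0.72 ± 0.15), and its groups did not overlap. Cox5a (-0.73 ± 0.15), Cox6b1 (-0.68 ± 0.15), Ndufa6 (-0.71 ± 0.15) and Uqcrfs1, the Rieske iron-sulfur protein of complex III (-0.78 ± 0.16), were lower by similar amounts. Cox7a1 (-1.58 ± 0.54), whose highest count in an EAE microglial sum was 7 UMIs, and the pseudogene Atp5l2 (-0.86 ± 0.28) rested on few UMIs, and reads of Atp5l2 and Atp5l may have been split in the counting.

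**Figure D4:**
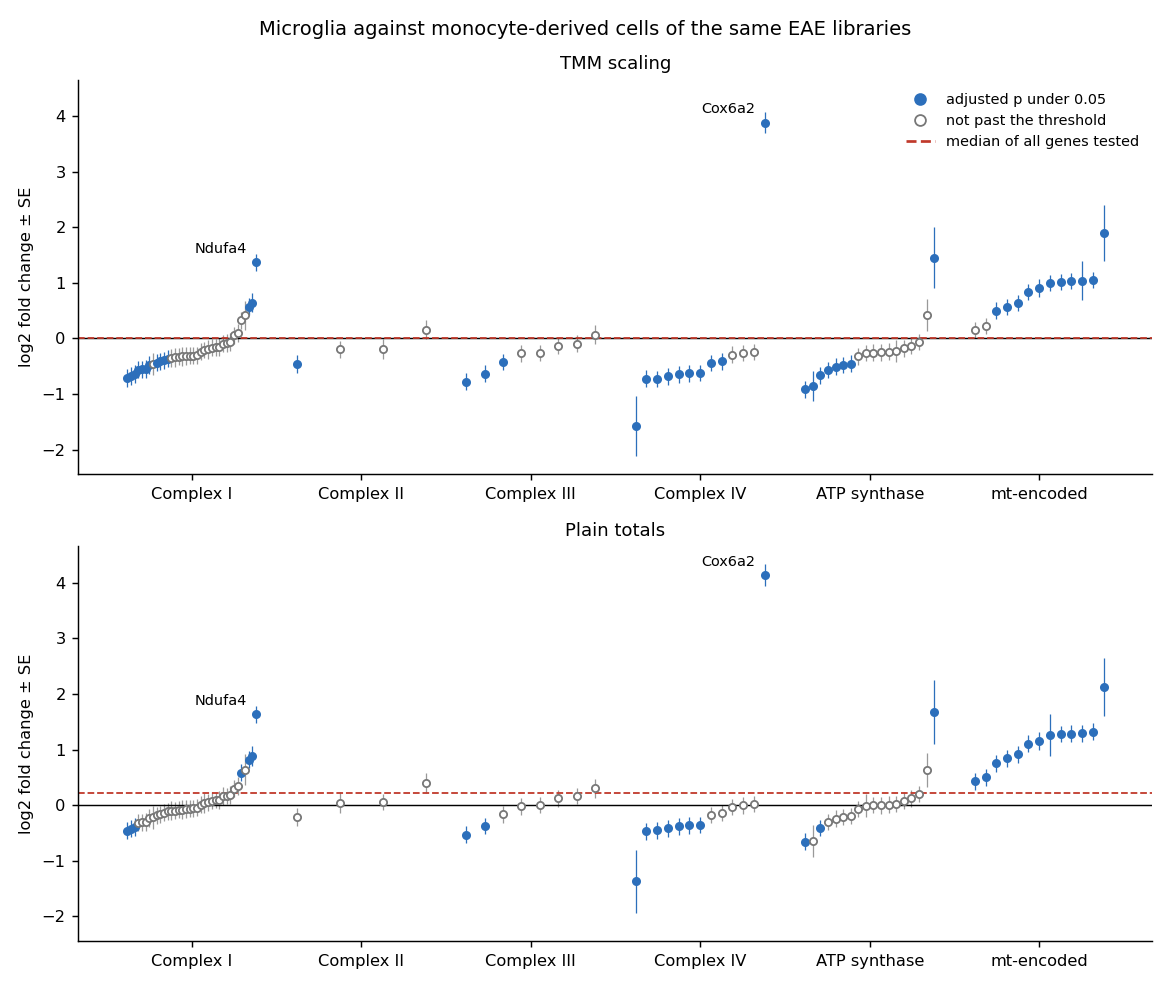
Log2 fold change of each member in microglia against monocyte-derived cells of the 4 EAE libraries (vertical axis, with standard errors), by complex and for the mitochondrially encoded genes, with TMM scaling (top) and on plain totals (bottom). Filled points passed an adjusted p under 0.05. Cox6a2 and Ndufa4 lie high under both scalings, and the dashed median of all genes lies at 0.00 above and 0.23 below.

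**Figure D5:**
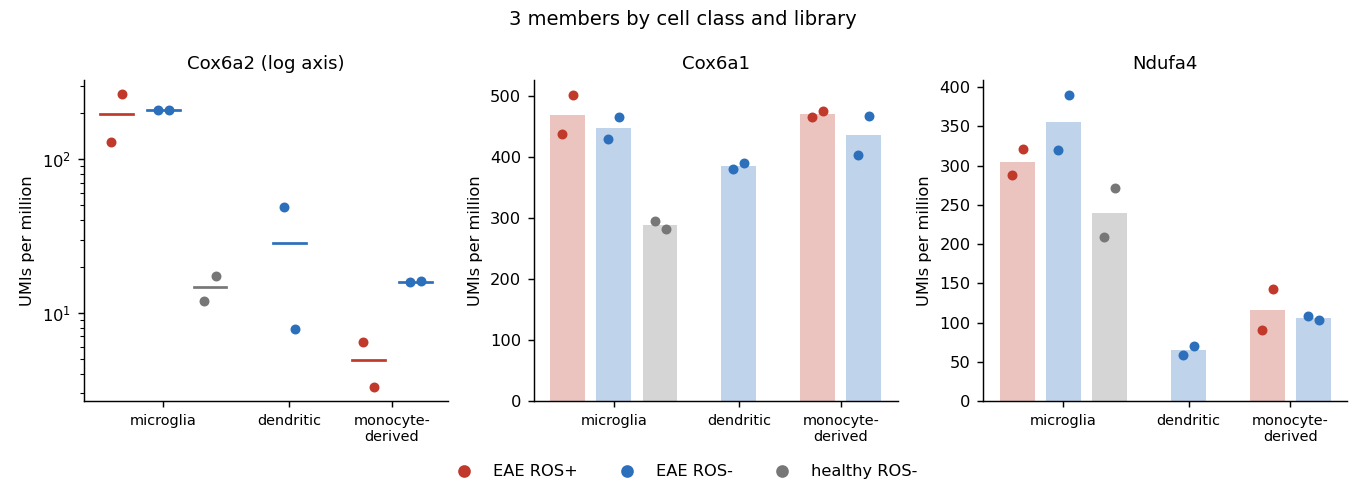
CPM of Cox6a2 (log axis), Cox6a1 and Ndufa4 by cell class and group; points are libraries, and lines or bars their means. Cox6a2 lies between 129 and 265 in the 4 EAE microglial sums and at 11.98 and 17.5 in the healthy ones, while Cox6a1 spans 283 to 502 over all microglial sums.

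Dendritic cells, from 18 and 25 cells of the EAE ROS- libraries, had smaller sums of all 5 complexes than monocyte-derived cells. Their own markers summed to 7869 and 10719 CPM, and those of monocyte-derived cells to 548 and 837. Complex I had 4747 and 4808 CPM in dendritic cells, against 6067 and 6122 in monocyte-derived cells of the same libraries (ratios 0.782 and 0.785). Complex II had 254 and 344 (26 and 44 UMIs), against 470 and 465, and complex IV 5843 and 6177, against 6674 and 7004 (0.875 and 0.882). Of 79 members 24 were called lower and 0 higher by edgeR, where 9.99% of all genes were lower and 4.65% higher. That count cannot be read as particular to the members: their median log2 fold change was -0.57 and that of all genes -0.53, and with RLE scaling 3 were lower and 1 higher. Without EAE ROS- replicate 1 or 2, 3 and 7 members were called. Ndufs8, a core iron-sulfur subunit of complex I, had 29.4 and 31.3 CPM in dendritic cells, from 3 and 4 UMIs, against 119 and 121 in monocyte-derived cells (log2 -2.26 ± 0.45; edgeR adjusted p = 1.9e-05).

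Against microglia, 2 of 79 members were higher and 11 lower in dendritic cells, where 7.76% of all genes were called higher and 11.0% lower; with RLE scaling 3 were higher and 6 lower, and without EAE ROS- replicate 1 or 2, 5 and 7 were called. Cox6a2 had 48.9 and 7.82 CPM in dendritic cells, from 5 and 1 UMIs, against 210 and 208 in microglia of the same libraries (log2 -3.22 ± 0.47; edgeR adjusted p = 2.2e-09). Ndufa4 had 58.7 and 70.4 in dendritic cells, against 320 and 390 in microglia (log2 -2.42 ± 0.34; adjusted p = 4.1e-10). Uqcrh (log2 0.71 ± 0.21) and Ndufv2, a core subunit of complex I (0.83 ± 0.29), were higher in dendritic cells. The mitochondrially encoded genes were lower in 10 of 13 cases, with a median of -1.57.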

How the data were processed

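The authors deposited matrices of raw UMI counts (genes by cell barcodes) of 6 Chromium 3' libraries, per the file headers and the labels' protocols. The submitters' processing notes list mm10, Cell Ranger 2.0.1, Seurat 3 and R 3.4.2. Annotation and use of strand in counting: not given in the sources used here. Several members share exon positions with genes on the opposite strand, and reads of such pairs, and of members and their pseudogenes, may not be separable. The files hold 9079 barcodes, 378 more than the 8701 cells of the design text.

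Filters of 200 genes or more and 10% mitochondrial UMIs or less left 9078 cells. Doublets were not called; cells with markers of several classes stayed outside the classes. Counts were added up for whole libraries and for each class of 10 or more cells. Sums were tested with edgeR 4.0.16 in R 4.3.3 (TMM, filterByExpr at min.count 10, glmQLFTest, the quasi-likelihood test) on all genes, with Benjamini-Hochberg adjustment over all genes tested and a threshold of 0.05. Whole libraries and microglia each had 1 fit over the 3 groups (3 residual degrees of freedom); monocyte-derived cells had a fit of 4 EAE sums (2), the class comparison 10 sums with the library as block (4), and the gate by class test 8 sums (2). A standard error is the size of the log2 fold change divided by the root of F. DESeq2 1.42.0 and the settings of the closing part were alternatives. The test was tried on simulated counts. Summed levels (CPM) use plain totals. Replicates differed by more than counting error (chi-square per degree of freedom 2.18 to 68.7).

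Named members were up to 8 per direction and comparison by absolute log2 fold change among those called, the 2 of highest level per complex, complex II, Ndufa4 and the isoform sets; others named were chosen after their values were seen. The members, lists, markers and tests were chosen with earlier results of these data known. Further lists were the 13 mitochondrially encoded subunits, 11 subunits and carriers outside the symbol rule, 43 assembly factors, 16 citric acid cycle genes, 73 mitochondrial ribosome genes and 11 regulators. Marker lists held 54 genes. Figures used matplotlib 3.10.9.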

Additional observations from a re-analysis of the deposited data

How the results depend on the processing

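Few libraries, a depth difference between groups and the scaling between sums limit these results. Counts of members called moved by more than 1.5 times as follows. In microglia of EAE ROS- against healthy ROS-, the 53 calls became 22 of 75 tested in cells of 1000 to 4000 UMIs and 19 to 54 on leaving out 1 library; with the replicate number as a block they stayed 53. Over all cells the 65 calls became 2 of 76 in cells of 1000 to 4000 UMIs. With the replicate block they were 68, a change within the factor of 1.5. The 1 call of EAE ROS+ against EAE ROS- became 2 (1 higher, 1 lower) with a replicate block over the EAE libraries. In monocyte-derived cells the gate comparison called 1 member, Cox6a2, lower, with DESeq2, without the low count filter and with the replicate block (log2 -1.69, adjusted p = 0.0039), and 0 to 1 on leaving out 1 library. Same-numbered EAE libraries deviated together over all cells (correlation 0.50 over 13631 genes) and in monocyte-derived cells (0.42), less so in microglia (0.07); with 2 numbers and no label naming a shared source, the pairing is not established.

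For microglia against monocyte-derived cells, the 36 calls became 20 with DESeq2, 20 on plain totals, 20 with a class rule of 5 UMIs and 90%, 23 without cells with dividing-cell genes, and 17 to 37 on leaving out 1 library. For dendritic against monocyte-derived cells the 24 became 2 with DESeq2, 4 with RLE scaling, 4 on plain totals, 15 without the low count filter and 3 to 25 on leaving out 1 library. For dendritic cells against microglia the 13 became 7 with DESeq2, 8 without the filter and 5 to 15 on leaving out 1 library. The gate by class test called 1 member with a class rule of 2 UMIs and 60%, and 0 to 1 on leaving out 1 library. The members' sum in EAE ROS- microglia, 19307 CPM on average, was 18679 as a mean over cells and 16738 in cells of 1000 to 4000 UMIs. The cause of these moves was not tested. Among values of single members, 2795 alternatives stayed on the same side of the threshold, 15 passed it and 225 no longer did; a sign change of a value that was never called was not counted as a reversal, and no called value changed sign. The microglial gate comparison and the gate by class test could not be fitted with a class rule of 5 UMIs and 90%. Restrictions by depth, dividing-cell genes and endothelial UMIs, and plain totals, were chosen after seeing the data.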

Other observations

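Other cells of the sort gave further levels. Cells with T or NK cell markers, 19 and 10 in the EAE ROS- libraries, had 24210 and 23575 CPM of the 80 members, and 0 UMIs of Cox6a2. At a median of 4774 and 3683 UMIs a cell, so few cells cannot show a Cox6a2 level below that of monocyte-derived cells. Cells with neutrophil markers, 10 in EAE ROS+ replicate 2, had 13718 CPM, with 4397 for complex IV and 3328 for ATP synthase. Cells with mixed markers, 347 and 219 in EAE ROS-, had 20620 and 22196 CPM for the members and 118 and 104 for Cox6a2, which lay between the levels of microglia and monocyte-derived cells of the same libraries, and a median of 12214 and 9985 UMIs a cell. These sets were looked at after the data were seen, and no test was made.

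Atp5g2, 1 of the 3 subunit c genes, differed between the replicate numbers. Over all cells it had 71.1 and 34.9 CPM in EAE ROS+ replicates 1 and 2, 86.7 and 27.3 in EAE ROS- replicates 1 and 2, and 61.1 and 24.0 in healthy ROS- replicates 1 and 2. It was the only member of 80 with replicate 1 at least 1.5-fold higher in all 3 groups, where 0.345% of 13631 genes met that rule, and 0 members met it in the other direction (0.403% of genes). Atp5l had 516 and 378, 418 and 268, and 163 and 73.2 in the same order. The labels do not say what the replicate numbers share.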
